A study of Saccharomyces cerevisiae with 18 samples.

Results

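The genes described here are 33 nuclear genes of budding yeast (Saccharomyces cerevisiae) that encode the machinery of oxidative phosphorylation. They were chosen by name from the 12289 features of 2 read count tables: 2 genes for cytochrome c, 4 for complex II, 7 for complex III, 8 for complex IV and 12 for the ATP synthase, its inhibitor INH1 included. All 33 were found in both tables, and all 33 passed the filter on low counts in both series.

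In mitochondria of this yeast, complex II (succinate dehydrogenase) and single-protein dehydrogenases pass electrons to ubiquinone. Complex III hands them on to cytochrome c, complex IV (cytochrome c oxidase) gives them to oxygen, and the ATP synthase uses the resulting proton gradient to make ATP. Core subunits of complexes III and IV and of the membrane part of the ATP synthase are encoded in mitochondrial DNA, whereas the genes described here are read in the nucleus and their proteins are imported. Fermenting yeast holds many of these nuclear genes low while glucose is present. The CCAAT-binding Hap2/3/4/5 complex is their best known activator, and Puf3 binds many mRNAs for mitochondrial proteins.

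The study sequenced RNA from strains that lack proteins of nonsense-mediated decay (NMD), which destroys mRNAs whose reading frame ends too early. All cells grew exponentially in rich medium (YPD) at 30 °C to an optical density of 0.6, and 3 samples were sequenced in each of 6 groups. The first series held the wild type BY4741 (mating type a) and upf1∆ cells, which lack the core NMD helicase (UPF1, named NAM7 in the annotation), in the same background. The second series, by another experimenter, held its own BY4741 wild type, nmd4∆ and ebs1∆ cells in that background, which lack proteins found with Upf1, and a strain labelled as the nmd4∆ ebs1∆ double deletion. That strain is BY4742, mating type alpha, so that genotype and background cannot be told apart there. The labels do not say how many clones or cultures of each strain were used, so a p-value here reflects the spread between the 3 samples of a group, which may be technical.

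Libraries held between 14243384 and 31452109 counts in total, and between 58702 and 116183 counts on the 33 genes. NAM7 was lower in the upf1∆ libraries (log2 change -4.83), NMD4 in the nmd4∆ libraries (-3.24) and EBS1 in the ebs1∆ libraries (-5.27) and in the labelled double deletion (-4.88). The change was 2.08 for NMD4 and 1.00 for EBS1 in upf1∆ and 0.81 for NMD4 in ebs1∆. The last did not pass (adjusted p = 0.0765) but did with the replicate number in the model (0.02) and with DESeq2 (0.00207). NAM7 gave 0.07, 0.16 and 0.22 in nmd4∆, ebs1∆ and the labelled double deletion and EBS1 -0.08 in nmd4∆, none of which passed, except NAM7 in the labelled double deletion with the replicate number in the model (adjusted p = 0.0263). NMD4 was not lost in the labelled double deletion: its level was 64.1, 80.8 and 76.1 CPM (counts per total, scaled to a common library size) against 31.5, 27.2 and 22.8 CPM in the wild type (log2 1.44). That group is therefore called the labelled double deletion throughout, since the NMD4 transcript does not match the label. In the same libraries all 4 markers of mating type a were lower and all 3 markers of mating type alpha were higher, as the strain label states. The 3 mutants of the second series share the same 3 wild type libraries.

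The upstream regions were read first, because most of these genes are known targets of a CCAAT-binding activator. In the R64 genome sequence (RefSeq), the letters CCAAT occurred on either strand within 500 bases before the coding start in 30 of 33 genes (90.9%), against 3748 of 6006 nuclear coding genes (62.4%). The longer word ACCAATNA, which contains CCAAT and resembles the known Hap2/3/4/5 site, occurred in 14 of 33 genes (42.4%), against 516 of 6006 (8.59%). By complex it was present in 6 of 12 ATP synthase genes, 4 of 8 of complex IV, 3 of 7 of complex III, 1 of 4 of complex II and 0 of 2 cytochrome c genes. A match is a run of letters and not a measured binding site. The 9 matches that lie outside every annotated reading frame feature are shown on the strand of their gene, 30 bases each, 5′ to 3′, with the matching letters in capitals. They let the spacing and flanks be compared between subunits of 3 complexes.
COR1, chrII:135849-135878, minus strand: acgctttctgcACCAATGAaatgccaataa
RIP1, chrV:107001-107030, plus strand: ctccataacggACCAATCAgcgttttgcgc
COX13, chrVII:144584-144613, plus strand: ttttttttcccACCAATGAgaggcggtact
ATP3, chrII:315368-315397, plus strand: cgtgatggagaACCAATGAgcggcgagtaa
ATP4, chrXVI:408916-408945, minus strand: atcaatattgaACCAATCAcgacgcttttt
ATP7, chrXI:408149-408178, minus strand: gtaaaagatacACCAATTAccacttgctgc
ATP14, chrXII:722553-722582, minus strand: gccatacacgaACCAATTAtgcatcataaa
ATP15, chrXVI:29934-29963, plus strand: cttttatacgaACCAATGAaatttgatcct
ATP17, chrIV:1228370-1228399, plus strand: ttacggagagaACCAATCAtatcgaaggat

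All 9 of these matches read on the strand of their gene. The distance from the match to the coding start ran from 126 bases in ATP15 to 343 bases in COR1. Of all 14 genes with the word, SDH1 was higher in upf1∆ with TMM, COX6, ATP3, ATP7, ATP14 and ATP15 were lower, and the other 8 did not pass. That is 5 lower of 14, where 18 of all 33 genes and 31.8% of all features were lower.

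Each gene was counted over 1 unspliced block that contains its annotated coding region, which begins with ATG in all 33. The block also holds the leader before the coding start and the trailer after the stop codon. An ATG lay in the leader of 5 of 33 genes (15.2%), namely SDH1, SDH2, COX4, COX9 and COX13, against 1449 of 5384 nuclear coding features with a leader (26.9%). The COX4 leader, in which 7 were found, is known to hold an intron. Upstream ATGs are of interest here because translation from them can expose an mRNA to NMD, but whether they are used was not measured.

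In wild type cells of the upf1 series, levels per feature length spanned a wide range within every complex. The ATP synthase genes were the most abundant, with a median of 229 CPM per kb, from 64.7 CPM per kb for INH1, which blocks ATP hydrolysis by the enzyme, to 349 CPM per kb for ATP1, the alpha subunit. Complex III had a median of 114 CPM per kb, from 63.3 for CYT1 (cytochrome c1) to 277 for QCR7, an accessory subunit. Complex IV lay closest together, with a median of 99.6 CPM per kb and a highest level 2.31 times its lowest. Complex II was spread most. Its flavoprotein gene SDH1 had 7.44 CPM per kb and its membrane anchor gene SDH3 had 153, a ratio of 20.5, although the protein subunits are known to assemble in equal numbers.

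The wild types of the 2 series were not alike for every gene, as shown in the plot of levels in both wild types. Because the tables were scaled separately and came from different experimenters, the values are set side by side and were not tested. Of 33 genes, 29 lay within 2-fold of each other, and 28 were lower in the wild type of the second series. CYC7, the minor hypoxic form of cytochrome c, had 18.6 CPM per kb in the upf1 series and 4.01 in the second series. SDH2, the iron-sulfur subunit of complex II, had 67.3 and 32.2 CPM per kb. SDH1 and ATP2 lay the other way. SDH1 had 7.44 and 18.4 CPM per kb, and ATP2, the catalytic beta subunit of the ATP synthase, had 282 and 565.

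**Figure D1:**
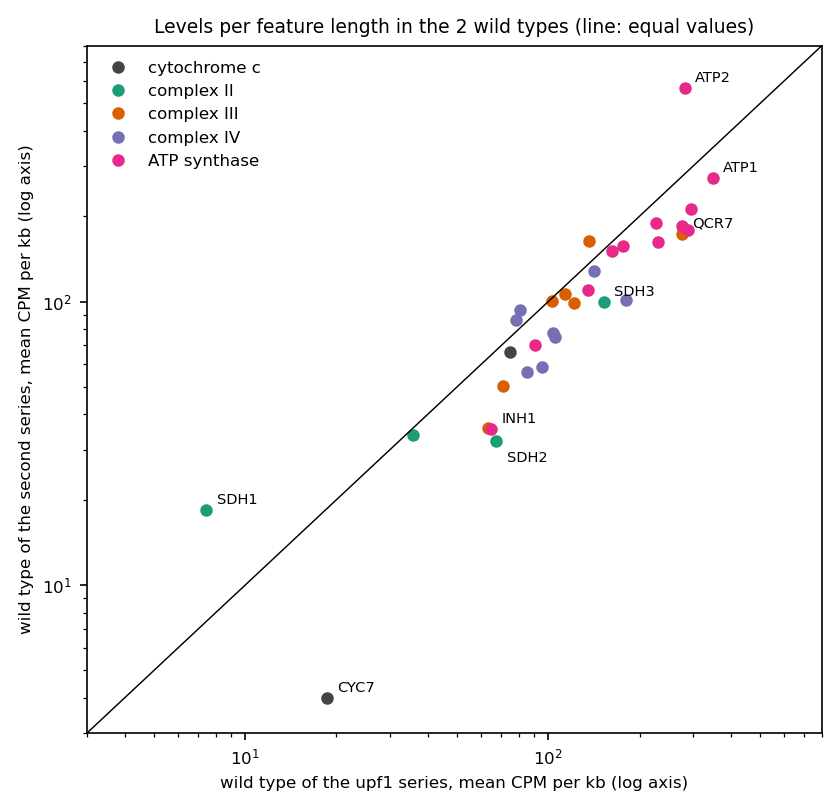
Mean level of each of the 33 genes in CPM per kb of feature, on log axes, in the wild type of the upf1 series (horizontal) and of the second series (vertical), each over 3 libraries; the line marks equal values. Most points lie just under the line, CYC7 lies far under it (18.6 against 4.01), and SDH1 (7.44 against 18.4) and ATP2 (282 against 565) lie above it.

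Loss of Upf1 changed the nuclear subunit genes by small amounts and not in 1 direction. The gene for the main cytochrome c, CYC1, and genes for the ATP synthase were lower, and CYC7 and the 2 genes for the catalytic part of complex II, SDH1 and SDH2, were higher. At an adjusted p under 0.05 (edgeR quasi-likelihood test, adjusted over all 9700 features tested), 3 of 33 genes were higher, 18 were lower and 12 did not pass. In the same comparison 37% of all features were called higher and 31.8% lower, and among features with an open reading frame (ORF features) 26% were higher and 44.1% lower. The 33 genes thus held fewer higher calls than either background and somewhat more lower ones than reading frame features. The changes of the 33 genes ran from -0.65 to 0.44 on the log2 scale, with a median of -0.20. The median of all reading frame features was -0.13 under the same scaling, and its sign depended on the scaling used, as given below.

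As a share of reads the genes moved up: they took 0.486%, 0.481% and 0.4998% of the counts on reading frame features in wild type and 0.537%, 0.522% and 0.509% in upf1∆, with no overlap. This share weights genes by their abundance. Dividing by the reading frame total is itself a scaling, so the rise is relative to that total.

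How many of the genes counted as higher or lower depended on how libraries were scaled. Scaling factors by the trimmed mean of M values (TMM) lay between 0.90 and 0.92 in wild type and between 1.09 and 1.11 in upf1∆ libraries, and many non-coding features rose in upf1∆. With scaling on reading frame features alone, which moved their median by 0.13 to -0.0025, 8 of the 33 genes were higher and 12 lower, against 42.5% and 21.4% of all features. With the library total alone, an alternative chosen after the data were seen, 11 were higher and 4 lower, against 51.5% and 9.6% of all features. Median log2 changes were then 0.14 for reading frame features and 0.08 for the 33 genes. All features include the non-coding ones, many of which rose, whereas all 33 genes are reading frame features. Shares called among reading frame features alone are not given with reading frame scaling or the library total. The calls of the 33 genes are thus not set against those of other coding features in these settings. The 3 genes called higher and 4 called lower in all 3 settings were CYC7, SDH1 and SDH2, and CYC1, ATP5, ATP15 and INH1. Of all features, 37% were called higher and 9.6% lower in every setting. The calls are nested: every feature higher with TMM was higher in all 3, and every feature lower with the library total was lower in all 3. Being called alike is therefore no separate support for these 7 genes. These 7 also passed when any 1 library was left out. Changes below are with TMM on all features unless another scaling is named. Values with reading frame scaling, which are relative to the typical coding feature, stand beside those of the 15 genes called in both TMM settings and of some others where the call differs.

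**Figure D2:**
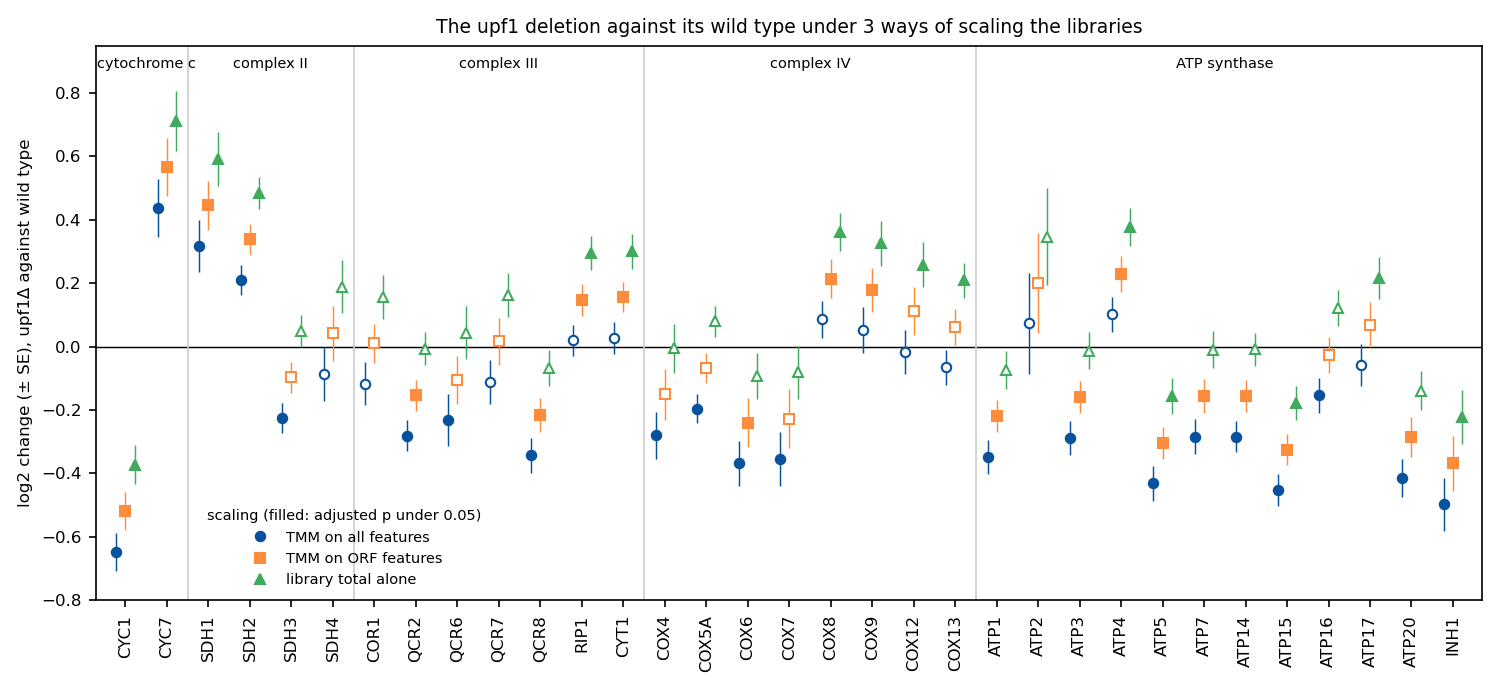
Log2 change (± SE) of the 33 genes in upf1∆ against its wild type, by complex, with TMM on all features (circles), TMM on reading frame features (squares) and the library total alone (triangles); filled symbols have an adjusted p under 0.05. CYC7, SDH1 and SDH2 are filled above 0, and CYC1, ATP5, ATP15 and INH1 filled under 0, in all 3 settings, while genes such as COX13 (-0.07 with TMM, 0.21 with the library total) change side.

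The 2 genes for cytochrome c, the small carrier between complexes III and IV, moved in opposite directions. CYC1 (YJR048W, chrX:526279-526855), the main aerobic form, had 43.0, 41.2 and 45.6 CPM in wild type and 27.8, 27.8 and 27.3 CPM in upf1∆. The groups did not overlap, and the level in upf1∆ was 63.8% of wild type (log2 -0.65 ± 0.06 SE, adjusted p = 3.12e-06; -0.52 with reading frame scaling). CYC7 (YEL039C, chrV:79549-80173) had 10.7, 11.51 and 12.7 CPM in wild type and 15.4, 15.7 and 16.1 CPM in upf1∆. Every upf1∆ library lay above every wild type library, a 1.35-fold rise (log2 0.44 ± 0.09, adjusted p = 0.00137; 0.57 with reading frame scaling). The coding regions of both genes are 74.9% identical when aligned and share at most 35 identical bases in a row. How many reads tell them apart was not measured.

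A ratio of 2 genes within a library needs no scaling. The pairs were chosen after the values were seen. The CYC7 to CYC1 ratio of counts per length was 0.229, 0.258 and 0.257 in wild type and 0.513, 0.522 and 0.543 in upf1∆. It was thus 2.12 times higher without Upf1, with no overlap of the groups (exact permutation test over libraries, 2-sided, p = 0.1, the smallest that 3 against 3 allows). In the wild type of the second series it was 0.0649 ± 0.0381 (SD, n = 3), and no mutant of that series stood apart from it.

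In complex II the 2 catalytic genes were higher. Of the 2 membrane anchor genes, 1 was lower with TMM, a call that depended on the scaling. SDH1 (YKL148C, chrXI:168955-171531), which carries the flavin and oxidises succinate, had 17.7, 21.1 and 18.7 CPM in wild type and 23.0, 24.0 and 24.5 CPM in upf1∆ (log2 0.32 ± 0.08, adjusted p = 0.00481; 0.45 with reading frame scaling). SDH2 (YLL041C, chrXII:52742-54014), with the iron-sulfur clusters, had 87.8, 84.97 and 84.2 CPM in wild type and 99.5, 97.3 and 100.6 CPM in upf1∆ (log2 0.21 ± 0.05, adjusted p = 0.00198; 0.34 with reading frame scaling). Neither gene's groups overlapped, and both genes have 1 ATG in the leader. Of the other genes with a leader ATG, COX4 was lower with TMM, and COX9 and COX13 did not pass. SDH3, a membrane anchor, had 119, 113 and 116 CPM in wild type and 101, 97.1 and 99.99 CPM in upf1∆. It was lower with TMM (log2 -0.23 ± 0.05, adjusted p = 0.00135), but this did not pass with reading frame scaling (-0.10, adjusted p = 0.103) and was 0.05 with the library total. SDH4, the other anchor, gave -0.09 ± 0.08 and did not pass. Within libraries the SDH1 to SDH3 ratio rose 1.46-fold, from 0.0488 ± 0.0056 to 0.0709 ± 0.0032, and the SDH2 to SDH3 ratio 1.35-fold, from 0.441 ± 0.0071 to 0.596 ± 0.0074 (SD, n = 3). For each the groups did not overlap (exact permutation p = 0.1, the smallest possible). SDH3 was taken as the denominator after its values were seen, so these ratios are no separate support. Ratios to SDH4 were not taken.

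**Figure D3:**
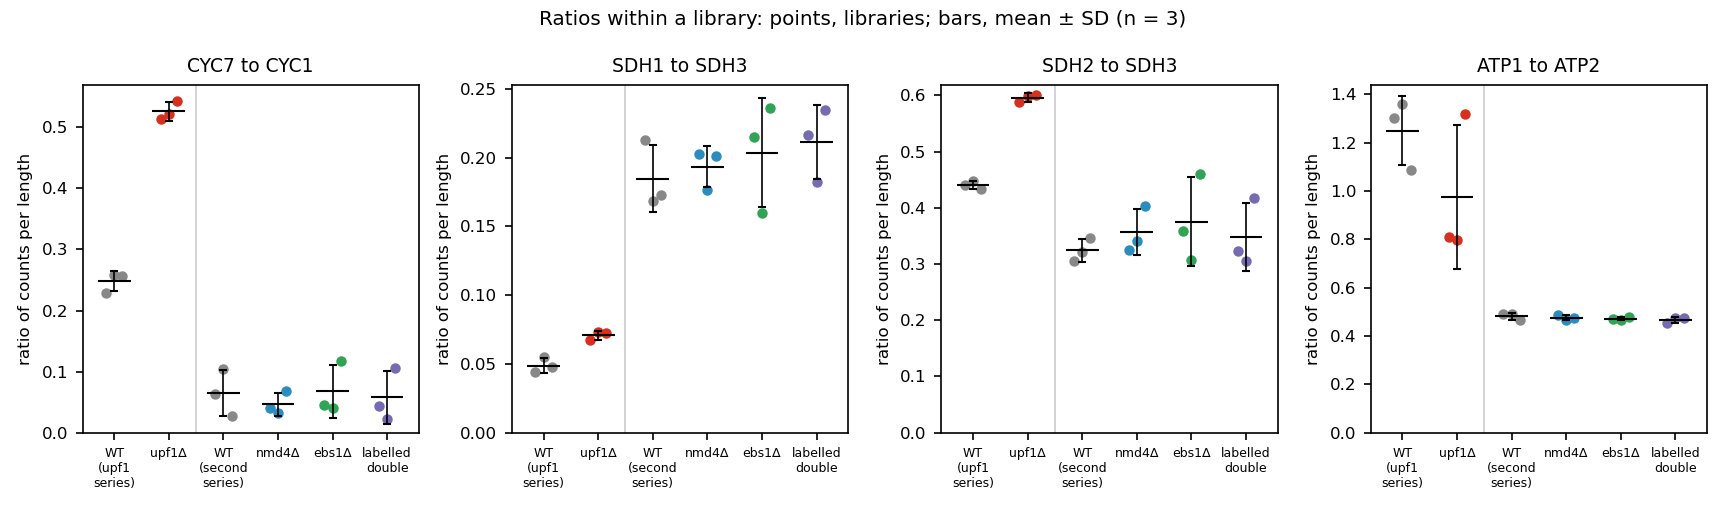
Ratio of counts per feature length of 2 genes within each library, in the 6 groups; points are libraries and bars the mean ± SD (n = 3). In upf1∆ the CYC7 to CYC1, SDH1 to SDH3 and SDH2 to SDH3 ratios lie above all libraries of their wild type, while the ATP1 to ATP2 ratio overlaps (1.09 to 1.36 in wild type, 0.80 to 1.32 in upf1∆).

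In complex III, 3 of 7 genes (42.9%) were lower with TMM and none was higher. That share of lower genes is close to the 44.1% of reading frame features, of which 26% were higher. QCR2 (YPR191W), a core protein, had 156, 150.3 and 152 CPM in wild type and 125, 125 and 127 CPM in upf1∆ (log2 -0.28 ± 0.05, adjusted p = 0.000398; -0.15 with reading frame scaling). QCR8 (YJL166W), an accessory subunit near the ubiquinone site, had 50.4, 50.5 and 53.0 CPM in wild type and 42.0, 40.7 and 38.7 CPM in upf1∆ (log2 -0.34 ± 0.06, adjusted p = 0.000231; -0.22 with reading frame scaling). Both sets of libraries were fully apart. QCR6, the acidic hinge protein, gave -0.23 ± 0.08 (adjusted p = 0.0276), with overlapping groups, and 0.04 with the library total. That call was lost with reading frame scaling. It was also lost without wild type replicate 3 (adjusted p = 0.0554), without upf1∆ replicate 1 (0.116) or without upf1∆ replicate 3 (0.11). COR1, QCR7, RIP1 (the Rieske iron-sulfur protein) and CYT1 did not pass, at -0.12, -0.11, 0.02 and 0.03. QCR7 passed as lower once the replicate number was in the model (adjusted p = 0.0449), and COR1 without upf1∆ replicate 2 (-0.17, adjusted p = 0.0383). With reading frame scaling RIP1 and CYT1 were called higher, at 0.15 and 0.16.

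In complex IV, beside 44.1% of reading frame features, 4 of 8 genes (50%) were lower with TMM. These were COX6 (-0.37 ± 0.07), COX7 (-0.36 ± 0.09), COX4 (-0.28 ± 0.08) and COX5A (-0.20 ± 0.05, but 0.08 with the library total), all small subunits around the mitochondrially encoded core. COX6 (YHR051W) had 48.0, 45.2 and 51.0 CPM in wild type and 38.9, 34.0 and 39.1 CPM in upf1∆, with no overlap (adjusted p = 0.000812; log2 -0.24 with reading frame scaling). It was the only one of the 4 still called with reading frame scaling. COX8, COX9, COX12 and COX13 lay between -0.07 and 0.09 with TMM and did not pass. Of these, COX8 and COX9 were higher with reading frame scaling, at 0.21 and 0.18, and COX8 passed with TMM without upf1∆ replicate 2 (0.14, adjusted p = 0.0428).

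With TMM the ATP synthase held the most genes that were lower, 9 of 12 (75%), and none that was higher. Of reading frame features, 44.1% were lower and 26% higher. With reading frame scaling 8 were lower and 1, ATP4, higher, against 21.4% and 42.5% of all features. With the library total 3 were lower (ATP5, ATP15 and INH1) and 2 higher (ATP4 and ATP17), against 9.6% and 51.5% of all features. For reading frame scaling and the library total these shares include non-coding features, and shares of reading frame features alone are not given. The 12 genes together took 0.288%, 0.290% and 0.305% of reading frame counts in wild type and 0.317%, 0.312% and 0.292% in upf1∆, which overlap. In the central stalk, ATP15 (YPL271W, chrXVI:30049-30385), the epsilon subunit, had 104, 101 and 95.2 CPM in wild type and 73.7, 72.8 and 72.3 CPM in upf1∆ (log2 -0.45 ± 0.05, adjusted p = 1.29e-05; -0.32 with reading frame scaling). ATP3, the gamma subunit, went from 328, 337 and 343 to 275.4, 272 and 277 CPM (-0.29 ± 0.05, adjusted p = 0.000631; -0.16 with reading frame scaling). ATP16, the delta subunit, gave -0.15 ± 0.06 (adjusted p = 0.0294), but 0.12 with the library total. Its call was lost with reading frame scaling, and without wild type replicate 1 (adjusted p = 0.0604), upf1∆ replicate 1 (0.0735) or upf1∆ replicate 2 (0.0636).

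The peripheral stalk genes were lower apart from ATP4. ATP5 (YDR298C, chrIV:1058005-1058997), which links the stalk to the catalytic head, had 173, 170.4 and 183 CPM in wild type and 127, 134 and 129 CPM in upf1∆ (log2 -0.43 ± 0.05, adjusted p = 3.52e-05; -0.30 with reading frame scaling). ATP7, the d subunit, went from 207, 208 and 215 to 175, 166 and 176 CPM (-0.28 ± 0.05, adjusted p = 0.000779; -0.16 with reading frame scaling). ATP14, the h subunit, went from 121, 121 and 116 to 102, 97.5 and 94.2 CPM (-0.28 ± 0.05, adjusted p = 0.000457; -0.16 with reading frame scaling). In none of the 3 did the groups overlap. ATP4, the b subunit, gave 0.10 ± 0.06 (adjusted p = 0.13), passed as higher with the replicate number in the model (adjusted p = 0.0373) and was higher with reading frame scaling (0.23). The membrane subunit ATP20, which takes part in dimer formation, went from 45.8, 44.9 and 48.3 to 36.6, 33.01 and 34.8 CPM (-0.41 ± 0.06, adjusted p = 0.000112; -0.29 with reading frame scaling), while ATP17 gave -0.06 ± 0.07 and did not pass.

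In the catalytic head, ATP1 had 737, 796 and 773 CPM in wild type and 591, 613 and 608 CPM in upf1∆ (log2 -0.35 ± 0.05, adjusted p = 0.000184; -0.22 with reading frame scaling). Its partner ATP2 varied more between libraries than any other of the 33 genes in upf1∆, with 433, 448 and 544 CPM in wild type and 559, 588 and 353 CPM in upf1∆. It gave 0.07 ± 0.16 and did not pass, but passed as higher without upf1∆ replicate 3 (0.27, adjusted p = 0.0302). In the second series the ATP1 to ATP2 ratio was steady, between 0.45 and 0.49 in all 12 libraries, whereas in the upf1 series it ran from 0.80 to 1.36 (exact permutation p = 0.3 between its groups). INH1 (YDL181W, chrIV:135008-135536), the inhibitor, had 33.9, 35.8 and 32.95 CPM in wild type and 26.5, 21.4 and 25.0 CPM in upf1∆. All upf1∆ libraries lay lower, at 70.8% of wild type (log2 -0.50 ± 0.08, adjusted p = 0.000281; -0.37 with reading frame scaling).

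**Figure D4:**
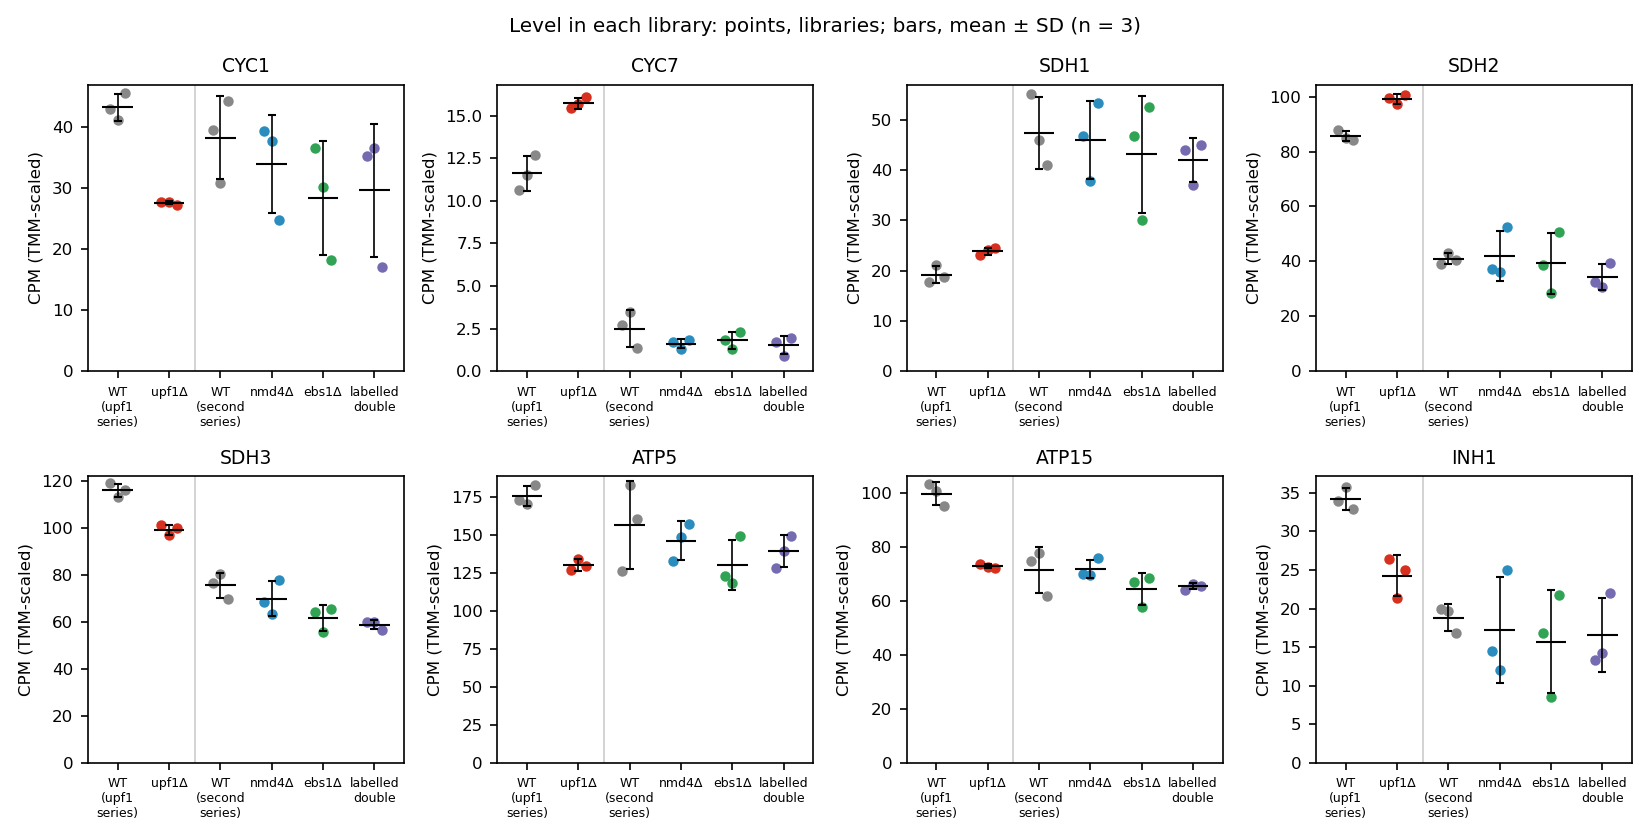
Level in CPM of CYC1, CYC7, SDH1, SDH2, SDH3, ATP5, ATP15 and INH1 in each of the 18 libraries; points are libraries, bars the mean ± SD (n = 3), and a line divides the separately scaled series. The upf1∆ points lie apart from their wild type in all 8 panels, whereas the mutants of the second series overlap their wild type except for SDH3, where the ebs1∆ and labelled double deletion points lie lower.

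Several of the genes overlap other features. Counting was by strand, and a read was given to every feature it overlaps. Thus 11 of the 33 genes can share reads with a same-strand feature, by only 1 base in SDH3, QCR6, CYT1, COX8, COX9 and ATP15. Among the 15 called with both TMM settings these are CYC1, COX6, ATP7, ATP14 and ATP15; 3 partners were also lower, namely YHR050W-A, which shares 91 bases with COX6 (log2 -0.69 ± 0.12), CUT_GIM_1005, which covers 18.2% of the CYC1 feature (-0.67 ± 0.20), and CUT_GIM_0428, which shares 340 bases with ATP7 (-0.26 ± 0.05). Reads in the shared bases cannot be told apart. YLR294C, which shares 132 bases with ATP14, did not pass, and ATP15 shares 1 base with its partner. On the opposite strand, 25 annotated non-coding transcripts overlap 14 of the genes. Of these, 18 could be tested in upf1∆, and 14, over 8 of 9 genes, were higher and none lower, against 56.5% of all non-coding features called higher. Transcripts over 1 gene overlap each other and share reads.

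At INH1 the antisense transcript XUT_4R-57, which covers 100% of the INH1 feature, had 3.18, 2.56 and 2.94 CPM in wild type and 18.5, 15.8 and 15.9 CPM in upf1∆ (log2 2.52 ± 0.12, adjusted p = 1.49e-08). INH1 itself was lower in the same libraries. Over CYT1, XUT_15R-219 rose from 0.854 ± 0.228 to 4.78 ± 0.225 CPM (SD, n = 3, log2 2.46 ± 0.19, adjusted p = 6.32e-07), and CYT1 did not pass. SUT641 over CYC1 rose by 1.13 ± 0.22 and XUT_7F-64 over COX4 by 2.31 ± 0.26. Of the 8 genes with a raised antisense transcript, CYC1, COX4, COX5A, ATP16 and INH1 were called lower with TMM, and CYT1, COX8 and COX12 were not called, a count of 5 of 8 beside 18 of all 33. With reading frame scaling CYC1 and INH1 were lower, CYT1 and COX8 higher, and the other 4 not called. Whether the antisense transcripts bear on the genes was not tested. In nmd4∆, ebs1∆ and the labelled double deletion, none of the 19 testable antisense transcripts was called.

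Some genes that work with the 33 showed larger changes than any of the subunits. The counts for these lists stand against 37% of all features called higher and 31.8% lower, and 26% and 44.1% of reading frame features, and no list is called particular from them. Of 11 further nuclear subunits and isoforms, 2 were higher and 3 lower in upf1∆. SHH4, a paralogue of SDH4, had 6.03, 6.18 and 5.79 CPM in wild type and 13.8, 12.9 and 12.5 CPM in upf1∆ (log2 1.12 ± 0.10), and COX26, a small subunit of complex IV, rose by 0.57 ± 0.10. ATP19 (-0.56 ± 0.07), COX5B (-0.47 ± 0.09), the hypoxic isoform of COX5A, and ATP18 (-0.45 ± 0.09) were lower. COX5B fell further than COX5A, and the COX5A to COX5B ratio within libraries rose from 1.62 ± 0.0605 to 1.99 ± 0.276 without overlap (exact permutation p = 0.1, the smallest possible). The 2 minor isoforms with a known preference for low oxygen, CYC7 and COX5B, went opposite ways.

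Of 38 assembly factors, 4 were higher and 19 lower, against 26% and 44.1% of reading frame features. COX19, a copper-binding protein needed for complex IV assembly, had 22.7, 23.0 and 23.3 CPM in wild type and 55.4, 54.1 and 51.8 CPM in upf1∆ (log2 1.22 ± 0.06), and ATP10, an ATP synthase assembly factor, rose by 0.84 ± 0.07. BCS1, which inserts the Rieske protein into complex III, rose by 0.57 ± 0.17. Those lower by at least 0.5 were CMC1 (-0.65 ± 0.10) and COX17 (-0.65 ± 0.11), both in copper delivery to complex IV, MZM1 (-0.62 ± 0.09), a Rieske protein chaperone, and CBP6 (-0.54 ± 0.10), needed to make cytochrome b. With reading frame scaling the list held 5 higher and 10 lower, and DESeq2 called 2 higher, without BCS1 (adjusted p = 0.0795) and COX18 (0.0939), and 19 lower.

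Of 13 activators of mitochondrial translation, 5 were higher and 3 lower, against 37% and 31.8% of all features. PET122 (1.02 ± 0.09), which acts on the COX3 mRNA, AEP1 (1.01 ± 0.06), which acts on that of ATP synthase subunit c, and ATP22 (0.55 ± 0.05) rose by at least 0.5. Of 8 regulators, HAP5 (0.90 ± 0.10), a DNA-binding subunit of the CCAAT complex, was higher, and ROX1 (-0.63 ± 0.10), a repressor of hypoxic genes, HAP1 (-0.37 ± 0.08), PUF3 (-0.37 ± 0.08) and HAP2 (-0.24 ± 0.08) were lower. With reading frame scaling 2 regulators were higher and 3 lower. HAP4, the glucose-regulated activating subunit, gave -0.06 ± 0.06 and did not pass. Of 6 enzymes that feed electrons into the chain, 3 were higher and 0 lower: CYB2 (0.59 ± 0.10) and DLD1 (0.19 ± 0.06), which oxidise lactate, and GUT2 (0.45 ± 0.08), which oxidises glycerol 3-phosphate. DESeq2 did not call DLD1 (adjusted p = 0.128). Of 4 carriers of ATP, ADP and phosphate, AAC3 (0.33 ± 0.12) was higher and the phosphate carrier MIR1 (-0.31 ± 0.08) lower, of which DESeq2 did not call AAC3 (adjusted p = 0.129).

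The 7 mitochondrially encoded subunits had negative log2 values in upf1∆, and 4 were called lower: COB (-0.52 ± 0.21), COX3 (-0.42 ± 0.10), COX1 (-0.28 ± 0.10) and OLI1 (-0.28 ± 0.09). With reading frame scaling 1 remained called, COX3 at -0.29. In bulk RNA, fewer mitochondrial genomes per cell and less RNA from each cannot be told apart.

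In the second series, 0 of the 33 genes passed in any mutant (edgeR, adjusted over all 10148 features tested). The share of all features called in either direction was 0.0493% in nmd4∆, 0.365% in ebs1∆ and 2.39% in the labelled double deletion. At an unadjusted p under 0.05 there were 0, 13 and 7 of the 33 genes, against 5.08%, 12.7% and 14.9% of all features. DESeq2 called 0, 0 and 1, the last being SDH3 (adjusted p = 0.0328), against 0.225%, 2.59% and 3.84% of all features. With the replicate number in the model 0, 1 and 2 of the genes were called lower, against 0.00985%, 2.4% and 3.63% of all features. The median log2 change of the 33 genes was -0.07 in nmd4∆, -0.26 in ebs1∆ and -0.18 in the labelled double deletion, while the medians of all reading frame features were -0.02, -0.03 and -0.06. Values below 0 were found for 22, 33 and 29 of the 33 genes, against 57.2%, 57.5% and 61.8% of reading frame features.

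The groups lay fully apart, with the mutant lower, for 1 gene in nmd4∆, 12 in ebs1∆ and 12 in the labelled double deletion, where 3.18%, 5.94% and 7.35% of all features did so. No gene lay fully apart in the other direction. Because these comparisons use the same wild type libraries, their values are not independent of each other. Single libraries weighed on these values. In ebs1∆ replicate 2 was the lowest of the 3 for 28 of 33 genes, and without it the median was -0.17. In the shared wild type replicate 2 was the highest for 23 of 33 genes.

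**Figure D5:**
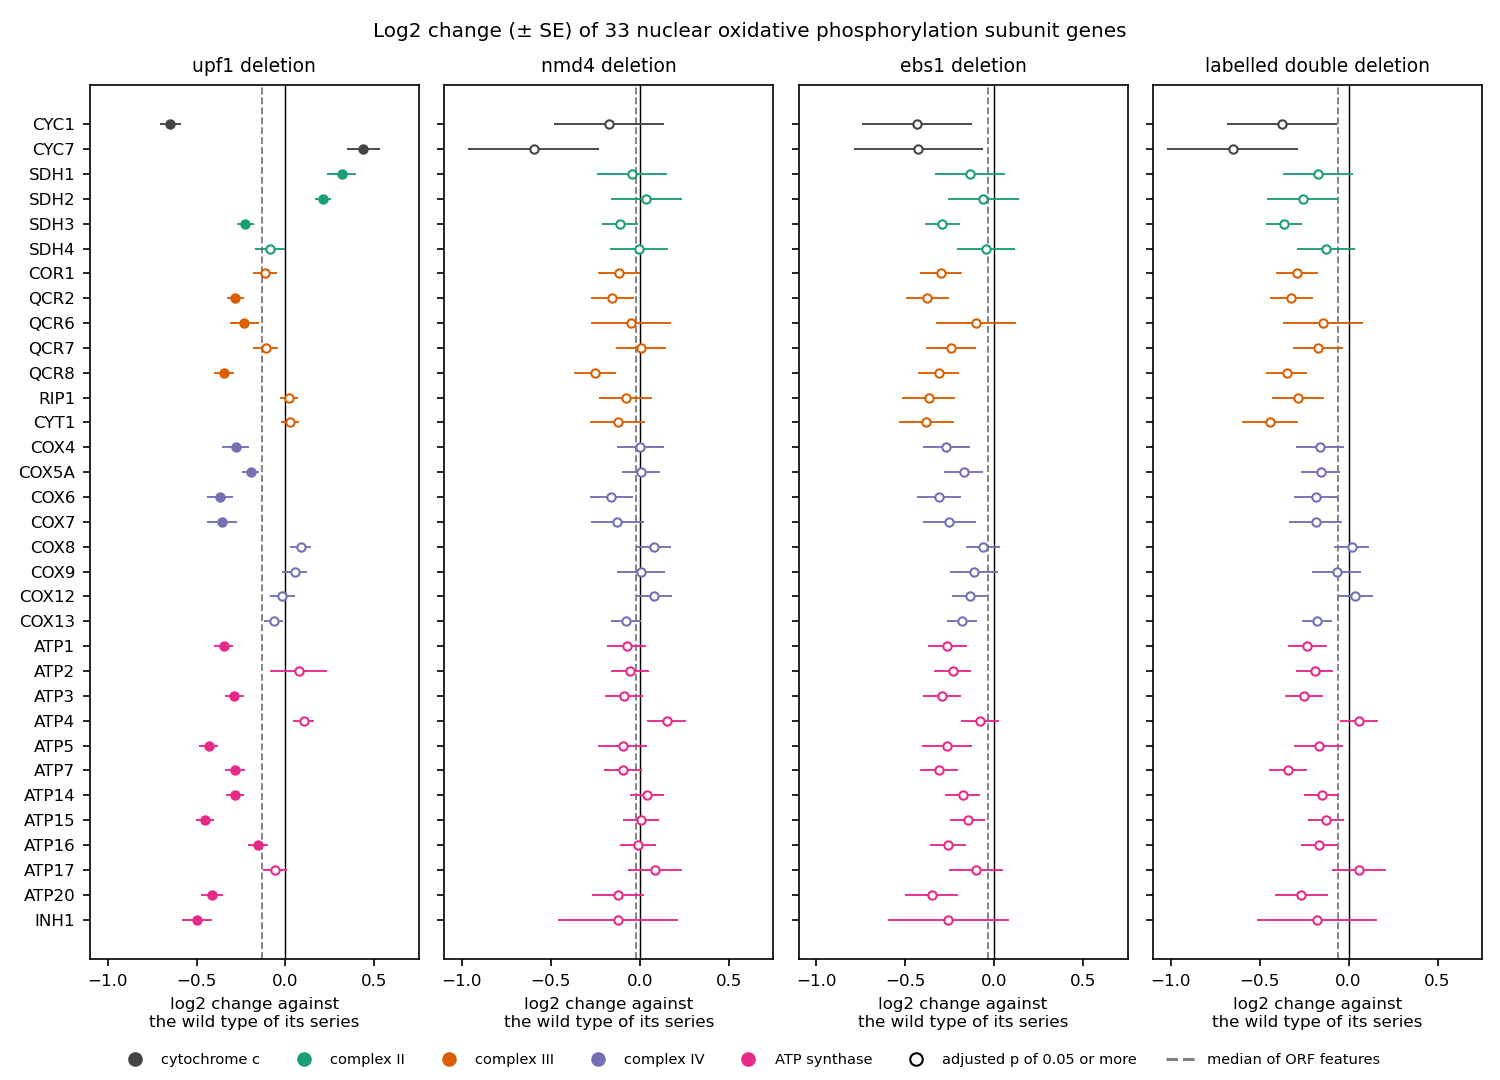
Log2 change (± SE) of the 33 genes in the 4 mutants, each against the wild type of its own series; filled points have an adjusted p under 0.05 (edgeR), colours mark the complexes, and the dashed line is the median of reading frame features. Filled points appear only in the upf1∆ panel, 3 right and 18 left of 0, while in ebs1∆ all 33 open points lie left of 0.

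In nmd4∆ the smallest p belonged to QCR8, which had 46.2, 57.3 and 46.4 CPM in wild type and 38.7, 42.3 and 44.8 CPM in nmd4∆ (log2 -0.25 ± 0.12, adjusted p = 0.98). Next came CYC7, with 2.69, 3.48 and 1.34 CPM against 1.71, 1.31 and 1.82 CPM (-0.60 ± 0.37, adjusted p = 0.999). ATP4 followed, with 152, 172 and 153 CPM against 158, 184 and 187 CPM (0.15 ± 0.11, adjusted p = 0.999). QCR8 was the single gene whose groups did not overlap, and none of the 3 passed the test.

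In ebs1∆ the smallest p belonged to QCR2, with 140, 159 and 132 CPM in wild type and 120, 90.3 and 121 CPM in ebs1∆ (log2 -0.38 ± 0.12, adjusted p = 0.22). ATP7 had 140, 142 and 138 CPM against 119, 100.4 and 119 CPM (-0.31 ± 0.11, adjusted p = 0.261), and SDH3 had 76.6, 80.5 and 69.9 CPM against 64.2, 55.6 and 65.7 CPM (-0.29 ± 0.10, adjusted p = 0.261). Each of these was lower in all 3 libraries without passing the test. With the replicate number in the model, 1 gene passed as lower, COX6, which had 60.4, 56.7 and 49.8 CPM in wild type and 51.7, 41.5 and 41.6 CPM in ebs1∆ (-0.31 ± 0.12 and adjusted p = 0.33 without it).

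In the labelled double deletion SDH3 stood at 60.0, 60.0 and 56.7 CPM (log2 -0.36 ± 0.10, adjusted p = 0.0996), ATP7 at 107, 121 and 104 CPM (-0.34 ± 0.11, adjusted p = 0.147) and QCR8 at 34.2, 41.8 and 41.6 CPM (-0.35 ± 0.12, adjusted p = 0.179). All 9 values lay below those of the wild type. With the replicate number in the model SDH3 (adjusted p = 0.0387) and QCR8 (0.0385) passed as lower. Genotype, the BY4742 background and mating type cannot be told apart in these values.

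None of the 7 genes called alike under every scaling in upf1∆ passed here. CYC1 had 39.6, 30.9 and 44.4 CPM in wild type. Its level was 39.3, 37.8 and 24.8 CPM in nmd4∆, 36.6, 30.2 and 18.3 CPM in ebs1∆ and 35.3, 36.6 and 17.1 CPM in the labelled double deletion. Replicate 3 was the lowest in each mutant and the highest in the wild type, and the groups overlapped. SDH1 gave -0.04, -0.13 and -0.17, SDH2 0.04, -0.06 and -0.26, and ATP15 0.01, -0.15 and -0.13 in the 3 mutants in the same order, with SEs of 0.20, 0.20 and 0.10. CYC7, which rose in upf1∆, gave -0.60 ± 0.37, -0.43 ± 0.36 and -0.65 ± 0.37, at levels between 0.92 and 3.48 CPM. ATP5 gave -0.10, -0.27 and -0.17 with an SE of 0.14, and INH1 -0.12, -0.26 and -0.18 with an SE of 0.34.

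Tests of the differences between effects used all 18 libraries. ATP15 was the single gene whose effect in upf1∆ differed from that in nmd4∆, by -0.45 ± 0.13 on the log2 scale (adjusted p = 0.0143), where 26.2% of all features differed. It was lower in 3 of 3 upf1∆ libraries and overlapped its wild type in nmd4∆. More of the 33 genes passed against nmd4∆ with RLE size factors, without the filter and with the replicate block, so being the single gene depends on the processing. Against ebs1∆ 0 of the 33 genes differed, and against the labelled double deletion 0, where 19.8% and 18.8% of all features did. At an unadjusted p under 0.05 there were 3, 1 and 3 genes, against 38.5%, 32.3% and 31.7% of all features. CYC7 differed by 1.03 ± 0.40, 0.83 ± 0.40 and 1.05 ± 0.40 (adjusted p = 0.0678, 0.158 and 0.0798), which did not pass. For most of the 33 genes it is therefore not shown that the upf1∆ effect differs from those in the second series, whose libraries varied more: the median coefficient of variation over the genes was 4.31% and 3.25% in the upf1 series and between 7.91% and 13.1% in the groups of the second.

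Among the lists of further subunits, assembly factors, activators, regulators, electron entry enzymes, carriers and mitochondrially encoded subunits no gene passed in the second series (edgeR). The 6 mitochondrially encoded subunits tested all had negative values, with medians of -0.88, -0.91 and -0.62 in nmd4∆, ebs1∆ and the labelled double deletion. The wild type libraries were themselves far apart, with 712, 1327 and 1536 CPM for COX1, against 640, 602 and 774 CPM in nmd4∆, 568, 448 and 850 CPM in ebs1∆ and 625, 663 and 826 CPM in the labelled double deletion. With the replicate number in the model COX1 and COX3 passed as lower in ebs1∆, as they did with DESeq2 (adjusted p = 0.0297 and 0.0449), and COX1 and the assembly factor SDH7 (log2 -0.35 ± 0.14) in the labelled double deletion. Whether this goes with the negative values of the nuclear subunit genes was not tested.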

How the data were processed

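RNA of 18 samples (6 groups of 3) was sequenced after ribosomal RNA removal with stranded libraries, per the labels' protocols. The deposited counts are raw reads per feature, which the authors obtained from featureCounts (Subread 1.5.0-p3, per the file headers) after alignment with STAR 2.4.2a to R64, per the submitters' processing notes. Reads were counted by strand and given to every feature they overlap. The members and gene lists were chosen with earlier results of these data known.

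Each series was fitted alone in edgeR 4.0.16 (R 4.3.3) with filterByExpr, TMM and the 2-sided quasi-likelihood test; p-values were adjusted over all features (Benjamini-Hochberg, threshold 0.05). Differences between effects used 1 fit of 18 libraries. SE is the absolute log2 change over the square root of F. CPM are scaled by the TMM library size. Coordinates and sequences are from RefSeq R64 and the files' own features. Exact permutation tests and figures used scipy 1.17.1 and matplotlib 3.10.9. The fits were tested on data simulated from the levels and spread of the upf1 series. That did not test the wider spread of the second series or the choice of scaling. Library totals set the precision, and p-values measure only the spread between samples.

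Alternatives were scaling on reading frame features or (added later) on the library total, RLE size factors, DESeq2 1.42.0, no filter, a replicate block and leaving out each library. The labels say that same-numbered samples were made in parallel, so numbers pair samples. Deviations of same-numbered samples correlated at 0.129, 0.226 and 0.0439 in the upf1 series, 0.489, 0.144 and 0.246 in nmd4∆, 0.474, 0.0845 and 0.284 in ebs1∆ and 0.496, -0.0106 and 0.271 in the labelled double deletion. Differently numbered samples averaged -0.0667, -0.146, -0.141 and -0.126 in the same order. Deviations were taken from each group's own mean, so these averages are largely set by the same-numbered values and are no separate support. The main model left this pairing out, and the replicate block took it in. Genes were named by rule: members called in upf1∆ with both TMM scalings, the 3 with the smallest p in each other comparison, both cytochrome c genes, the deleted genes, and genes of other lists called with a log2 change of at least 0.5 or among the 4 smallest p of a list; HAP2, HAP4 and the genes with an antisense transcript were added after their values were seen.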

Additional observations from a re-analysis of the deposited data

Results flagged for a closer look

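ATP15, which encodes the epsilon subunit of the ATP synthase, drew attention because its change in upf1∆ differed from its change in nmd4∆ by a test of the difference itself. The difference was -0.45 on the log2 scale (upf1∆ effect minus nmd4∆ effect, adjusted p = 0.0143, edgeR). It was the single member that passed in the main fit, and no explanation was tested. More members passed against nmd4∆ with RLE size factors, without the filter and with the replicate block.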

How the results depend on the processing

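Counts in upf1∆ depended on scaling. Genes called higher numbered 3 with TMM, 8 with reading frame scaling, 8 with that and the replicate block, and 11 with the library total, and those called lower 18 with TMM and 4 with the library total. The median log2 change was -0.067 with reading frame scaling, -0.067 with the block added, -0.24 with RLE, -0.23 with DESeq2 and 0.080 with the library total, which reversed it. The library total also turned SDH3 to 0.050, QCR6 to 0.044, COX5A to 0.080, COX12 to 0.26, COX13 to 0.21, ATP16 to 0.12 and ATP17 to 0.22. These settings differ by construction in the features taken as stable. Leaving out 1 library gave 19 to 22 calls, 3 to 4 higher and 16 to 18 lower, with medians from -0.21 to -0.17. In nmd4∆, ebs1∆ and the labelled double deletion it gave 0 to 0 calls, with medians from -0.11 to -0.03, -0.31 to -0.17 and -0.24 to -0.16. The replicate block gave 1 call in ebs1∆ and 2 in the labelled double deletion, where DESeq2 gave 1 and the library total a median of -0.033. In the upf1 series it added ATP4 and QCR7 to the calls and changed no other call among the 33 genes. For the differences between effects, RLE gave 8, 1 and 1 calls (against nmd4∆, ebs1∆ and the labelled double deletion), no filter 4, 1 and 1, the block 2 against nmd4∆, and the block with reading frame scaling 1 against the labelled double deletion. The cause was not tested. Changes of sign with neither value past the threshold numbered 28 of 600 compared.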
